A study of Homo sapiens with 6 samples.

Results

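The STAT genes STAT2, STAT3, STAT4, STAT5A, STAT5B and STAT6 encode transcription factors that cytokine receptors activate. They were selected by gene symbol, after Ensembl identifiers without version were matched to names, and are 6 of the 33644 genes in the table. The series is labelled as RNA sequencing of the human embryonic kidney line HEK293T, with 3 samples of an alt-LAMA3 KO derivative and 3 WT samples, all untreated and at day 0. The labels do not say how many KO clones were used, and they name no separate cultures behind the samples. If the p-values used here come from these samples, they describe only the spread between them, which may be technical. The processed data used here are the authors' deposited table of 1 comparison. It holds a mean normalized count over all libraries and a log2 fold change with its error, but no value per sample and no level per group. Its header does not name its groups. A positive log2 fold change means higher expression in what is called here the numerator group, and neither group is equated with KO or WT.

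The content of the table did not match the labelled cells. In a list of 16 T lymphocyte markers, 13 had a mean normalized count of at least 72.0, which is 5 per 1000000 of the summed means. The same level was reached by 1 of 8 myeloid markers, 1 of 6 natural killer markers, 0 of 7 B lymphocyte markers and 0 of 16 HEK293 markers. The authors' deposited table gave means of 27074 for the co-receptor gene CD8A and 13033 for CD247, a signalling chain of the T-cell receptor, but 1.87 for CD5 and 1.83 for the co-receptor gene CD4. The highest HEK293 marker in the authors' deposited table was IGF2BP3 at 19.2, followed by CDH2 at 3.46, and KRT19 and DLK1 were listed at 0. In the other lists the highest means in the authors' deposited table were 26.8 and 4.67 for CD79B and CD79A, 103 and 61.6 for CD68 and FCGR3A, and 576 and 3.90 for NCAM1 and FCER1G. The lowest were MS4A1, PAX5, SPI1 and NCR1 at 0, CD14 at 2.38 and SH2D1B at 0.579. The lowest means took 9 values, each shared by 149 to 390 genes, where 1 read in each of 6 labelled samples would give 6. Which libraries the means were taken over was not tested. In RNA from whole cultures, fewer cells of a type and less RNA per cell cannot be told apart.

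STAT proteins wait in the cytoplasm in latent form. When a cytokine binds its receptor, Janus kinases attached to the receptor phosphorylate a tyrosine of the STAT protein, which pairs with a second STAT through its SH2 domain and enters the nucleus. Most STAT pairs bind GAS elements, whereas STAT2 joins IRF9 in the ISGF3 complex and binds interferon-stimulated response elements (ISRE). In lymphocytes, STAT2 is known for type I interferon signalling, STAT3 for interleukin-6, interleukin-21 and interleukin-23, STAT4 for interleukin-12, STAT5A and STAT5B for interleukin-2 and interleukin-7, and STAT6 for interleukin-4 and interleukin-13.

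Of the 6 genes, 3 lie side by side on chromosome 17. On GRCh38 (GENCODE 29), STAT5B (ENSG00000173757.9) runs from 42199168 to 42276707 on the minus strand, and STAT5A (ENSG00000126561.16) from 42287547 to 42311943 on the plus strand. STAT3 (ENSG00000168610.14) follows from 42313324 to 42388568 on the minus strand. The gap between STAT5B and STAT5A is 10839 bases and that between STAT5A and STAT3 is 1380 bases. Chromosome 12 carries STAT2 (ENSG00000170581.13, 56341597 to 56360155, minus strand) and STAT6 (ENSG00000166888.11, 57095408 to 57132139, minus strand). STAT4 (ENSG00000138378.17 in the deposited table, version 18 in GENCODE 29) lies on chromosome 2 from 191029576 to 191151596 on the minus strand.

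STAT5A and STAT5B share the most coding sequence of any pair of the 6 genes, and how reads common to both were assigned is not given in the sources used here. Their longest coding sequences in GENCODE 29 have 2385 and 2364 bases and were identical at 2090 of 2348 aligned positions (89.0%). The other 14 pairs of the 6 genes were 63.9% to 69.7% identical. The longest identical run of the STAT5A and STAT5B coding sequences was 429 bases, at positions 564 to 992 of both. Of all 31-base words in the annotated STAT5A transcripts, 11.8% also occurred in another gene, all of them in STAT5B. For STAT5B the share was 13.4%, with 10.6% found in STAT5A. STAT2, STAT3, STAT4 and STAT6 shared from 0.206% to 4.91% of their words with other genes. The aligned coding stretch where the pair differs most is shown, since reads that cover it differ between the genes. Untranslated and unaligned parts were not searched. The stretch is the ungapped 90-base window, starting at a codon, with the most differences. It lies at coding positions 79 to 168 of both genes, with the 27 bases that differ in capitals.
STAT5A: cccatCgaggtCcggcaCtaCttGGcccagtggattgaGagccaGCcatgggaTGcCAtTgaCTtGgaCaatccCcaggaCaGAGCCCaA
STAT5B: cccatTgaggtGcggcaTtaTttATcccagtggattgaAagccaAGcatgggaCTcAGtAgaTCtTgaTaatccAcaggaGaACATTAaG

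STAT5B had the highest level of the 6 genes. The mean normalized count in the authors' deposited table was 5004.5 for STAT5B, 3202 for STAT3 and 2353 for STAT5A. STAT2 followed at 401, STAT4 at 327 and STAT6 at 244 in the authors' deposited table. Among the 13957 genes with an adjusted p-value, STAT5B stood above 96.5% by mean, STAT3 above 93.5% and STAT5A above 90.6%. STAT2 stood above 65.6%, STAT4 above 62.4% and STAT6 above 57.7% of those genes. The 3 genes of chromosome 17 thus had the 3 highest means of the 6.

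Levels can be compared between genes only per length. Per kilobase of the longest annotated transcript, the mean normalized count was 981 for STAT5B, 634 for STAT3 and 547 for STAT5A. On the same per-kilobase scale it was 122 for STAT2, 116 for STAT4 and 60.4 for STAT6. STAT5B, STAT3 and STAT5A stood above the other 3 whichever transcript length was used. Within each trio the order depended on the length. STAT5A stood above STAT3 per kilobase of merged exons (409 against 363), and STAT2 fell behind STAT4 with merged exons (65.6 against 68.2) and behind STAT4 and STAT6 with the mean length of coding transcripts (153 against 248 and 158). STAT5B exceeded STAT5A 1.79-fold per kilobase with the longest transcript, 1.79-fold with coding transcripts and 1.90-fold with merged exons. No spread between samples is known for these levels, so neighbours in the order cannot be tested.

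**Figure D1:**
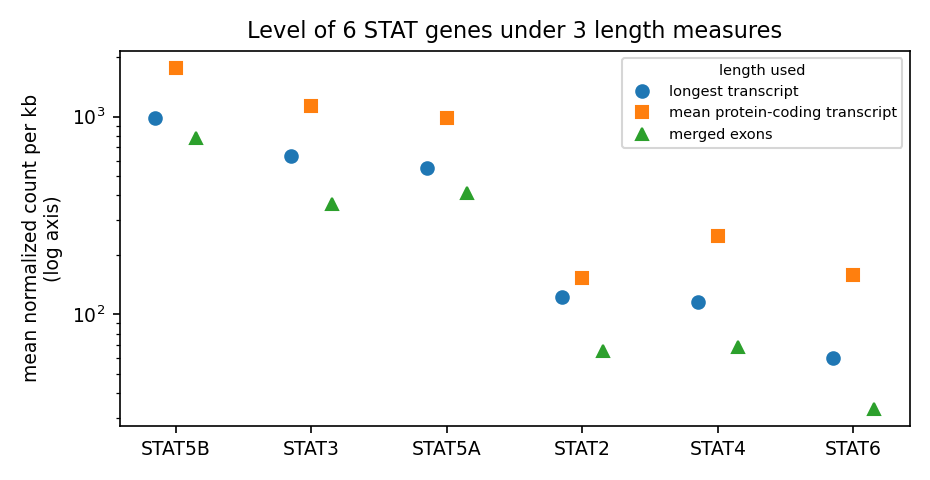
Mean normalized count per kilobase (log axis) of each STAT gene, from the authors' mean over libraries divided by 3 measures of transcript length, marked by symbols. STAT5B, STAT3 and STAT5A lie above STAT2, STAT4 and STAT6 for each length.

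STAT2 and STAT3 were lower and STAT6 was higher in the numerator group, while STAT4, STAT5A and STAT5B did not pass the threshold of an adjusted p of 0.05. All 6 genes had an adjusted p-value and a mean of at least 72.0. In the authors' deposited comparison 14.8% of 13957 tested genes were lower and 14.7% were higher, 29.5% in all. Among the 8312 tested genes with a mean of at least 72.0, 42.6% passed. The 3 of 6 STAT genes that passed (1 higher, 2 lower) are a count near that background, and nothing particular to the family is read from it.

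STAT2, the interferon-signalling member, had the largest change of the 6. The authors' deposited table gave a log2 fold change of -0.83 (standard error 0.14 and adjusted p 4.04e-08). This corresponds to 0.564 times the level in the denominator group, with a 95% interval of 0.466 to 0.682. Of the tested genes with a mean of at least 72.0, 5.61% had a lower log2 fold change than STAT2.

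STAT3 was lower by less but with a smaller error. Its log2 fold change in the authors' deposited table was -0.37 (standard error 0.06 and adjusted p 1.85e-09), which is 0.775 times the denominator level (95% interval 0.717 to 0.838). The log2 intervals of STAT2 (-1.10 to -0.55) and STAT3 (-0.48 to -0.26) did not overlap, although the difference itself was not tested. A lower log2 fold change than that of STAT3 was found for 19.5% of the tested genes with a mean of at least 72.0.

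STAT6, which acts downstream of interleukin-4, moved the other way. The authors' deposited table gave a log2 fold change of 0.52 (standard error 0.14 and adjusted p 0.00112), or 1.44 times the denominator level (95% interval 1.19 to 1.74). STAT6 overlaps NAB2 by 69 bases and LRP1 by 3647 bases on the opposite strand, and whether counting used strand is not given in the sources used here. In the authors' deposited table NAB2, a repressor of EGR factors, had a mean of 55.0 and a log2 fold change of -1.49 (standard error 0.48 and adjusted p 0.00840). LRP1, an endocytic receptor, had a mean of 28.8 and a log2 fold change of 0.18 (standard error 0.51 and adjusted p 0.850) in the same deposited table. Both means were below the 244 of STAT6, and the part of shared reads in its value was not tested.

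The other 3 genes had intervals that included no change, of unequal width. For STAT5B the log2 fold change in the authors' deposited table was -0.02 (standard error 0.04 and adjusted p 0.791), and its interval ran from 0.930 to 1.04 times the denominator level. For STAT5A it was 0.06 (standard error 0.07 and adjusted p 0.647), with an interval of 0.940 to 1.15 times. STAT4, the interleukin-12 mediator, had 0.13 (standard error 0.16 and adjusted p 0.638) in the authors' deposited table, with an interval of 0.878 to 1.35 times. The table therefore bounds a change of STAT5B more tightly than one of STAT4. STAT3, beside STAT5A on chromosome 17, was lower, whereas its 2 STAT neighbours did not pass, and these differences between neighbours were not tested.

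**Figure D2:**
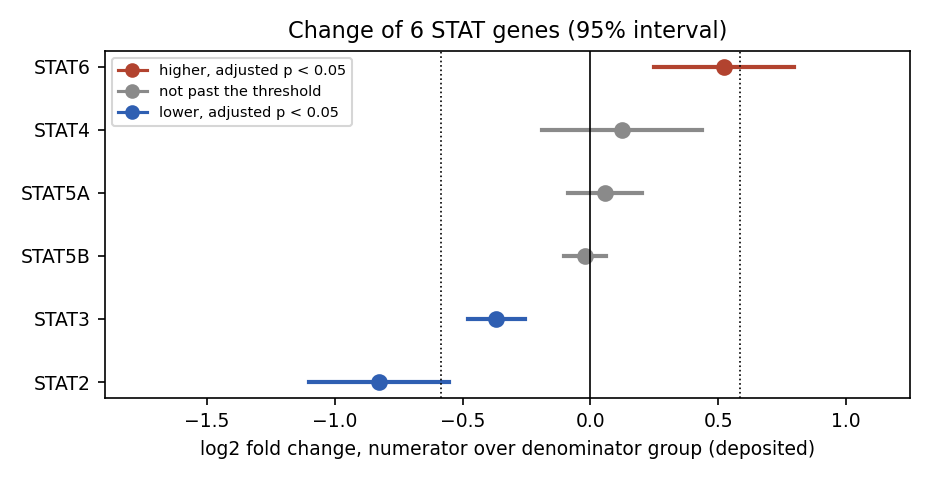
Log2 fold change, numerator over denominator group, of each STAT gene as deposited, with its 95% interval as a bar. Dotted lines mark a 1.5-fold change. STAT6 lies at 0.52, STAT2 at -0.83 and STAT3 at -0.37, and the bars of STAT4, STAT5A and STAT5B cross 0.

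The standard errors were compared with those of genes at similar levels. The error was smallest for STAT5B, at 0.04 against a median of 0.06 over the 500 genes with the closest means, of which 90.2% had a larger one. STAT6 had a standard error of 0.14 against a median of 0.19, and 94.6% of its 500 closest genes had a larger one. For STAT2, STAT3, STAT4 and STAT5A that share was 63.6%, 64.6%, 52.6% and 39.6%. Tested against a 1.5-fold change, 4.68% of genes passed and 0 of the 6 STAT genes did by the normal test of the deposited values, and none had an unadjusted p under 0.05. STAT2 came closest, with an unadjusted p of 0.0838 in that test across all genes. With standard errors widened 2.03-fold to the spread of all Wald statistics, 8.57% of genes passed, among them STAT2 (adjusted p = 0.0427) and STAT3 (0.0212) but not STAT6 (0.377).

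**Figure D3:**
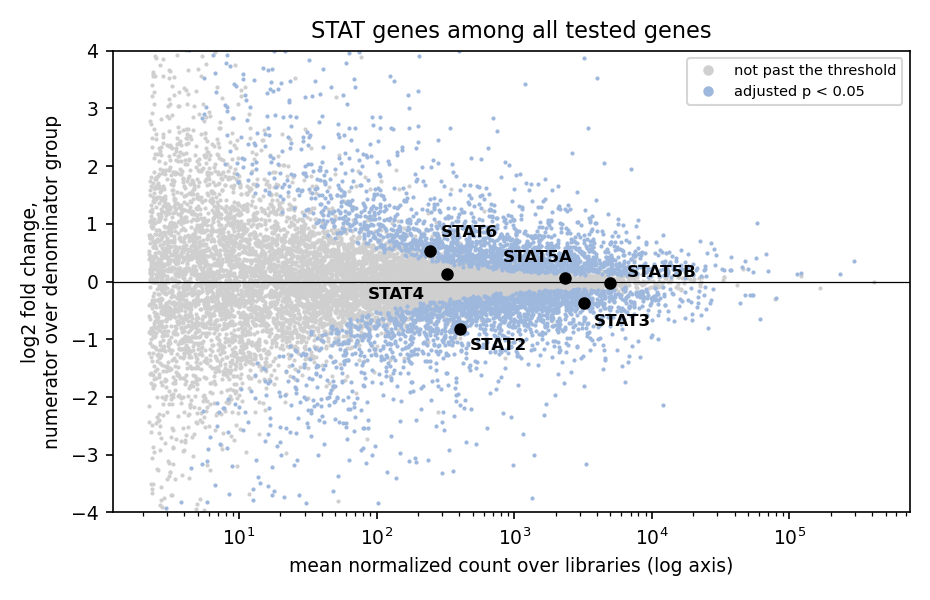
Mean normalized count (log axis) against log2 fold change, numerator over denominator group, for the 13957 tested genes, each a point, with STAT genes in black. The axis ends at 4 in both directions and leaves out 163 genes. STAT2 sits at -0.83 and STAT5B, the STAT gene farthest to the right, at -0.02.

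The rest of the pathway was read from lists of Janus kinases, receptors, ligands, regulators, partners and targets, 171 genes in all, of which 15 are in more than 1 list. Of the 171, 16 are not in the deposited table. Of 127 tested, 19 were higher and 51 lower, against 14.7% and 14.8% of all tested genes. This is 55.1% in all, against 29.5% of all tested genes and 42.6% of those with a mean of at least 72.0. Of the 155 pathway genes in the table, 86 reached that mean. The lists were chosen with earlier results of these data known, so the share of 55.1% is not independent of them. By list, the share past the threshold ran from 25.0% of Janus kinases to 85.7% of STAT6 targets, to be read beside these backgrounds. The median log2 fold change of the 127 was -0.40, against 0 over all tested genes. T lymphocyte markers moved in the same direction, with 10 of 14 tested markers lower and 0 higher (12 and 1 at an unadjusted p under 0.05) and a median log2 fold change of -0.51 in the authors' deposited comparison. No T lymphocyte marker was listed at 0, levels per group are not known, and the part of these markers in the pathway results was not tested.

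Janus kinases start the pathway by phosphorylating receptors and STATs. JAK3, which binds the common gamma chain, was lower, with a mean of 2849 and a log2 fold change of -0.38 (standard error 0.07 and adjusted p 8.03e-08) in the authors' deposited table. TYK2, a kinase of interferon and interleukin-12 receptors, had -0.18 (standard error 0.08 and adjusted p 0.0640) and JAK2 -0.09 (standard error 0.10 and adjusted p 0.580) in the authors' deposited table. Of the 7 alternatives, TYK2 passed in 1, with genes below a mean of 72.0 left out (adjusted p 0.0448). For JAK1, the partner of JAK3, the authors' deposited table listed a mean of 20.3 and a log2 fold change of -0.58 (standard error 0.55 and adjusted p 0.493). JAK2 and TYK2 had means of 1677 and 2169 in the same deposited table. The list had 1 of 4 members lower and 0 higher (2 and 0 at an unadjusted p under 0.05), with a median log2 fold change of -0.28. This is 25.0%, beside 29.5% of all tested genes.

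Among 29 tested receptor subunits, 7 were higher and 11 lower (62.1%, beside 29.5% of all tested genes). Their median log2 fold change was -0.32. With a mean of at least 72.0, the 3 largest rises were 5.07 (SE 0.17) for IL23R, 1.68 (SE 0.14) for the leptin receptor LEPR and 1.28 (SE 0.15) for OSMR, the oncostatin M receptor, in the authors' deposited table. At the same minimum mean, the largest falls in the authors' deposited table were -1.81 (SE 0.21) for CRLF2, a subunit of the receptor for thymic stromal lymphopoietin, and -1.29 (SE 0.06) for IL10RA, the interleukin-10 receptor chain. IL3RA, the interleukin-3 receptor alpha chain, followed at -1.17 (SE 0.06) in the authors' deposited table. Both subunits of the interleukin-12 receptor, which acts through STAT4, passed in opposite directions. In the authors' deposited table, IL12RB2 had a log2 fold change of 0.75 (SE 0.12) and IL12RB1 one of -0.91 (SE 0.08). IFNAR2, a subunit of the type I interferon receptor upstream of STAT2, was higher at 0.35 (standard error 0.05) in the authors' deposited table, while STAT2 was lower. IFNAR1, the other subunit of that receptor, is not in the deposited table.

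Subunits that feed STAT5A, STAT5B and STAT6 covered a wide range of mean counts, which are not divided by transcript length here. Means in the authors' deposited table were 27989 for IL2RA, 18282 for IL2RG, the common gamma chain, 5969 for IL9R and 2560 for IL4R. For IL2RB, the chain that pairs with IL2RG, the mean in the authors' deposited table was 8.03, and for the interleukin-7 receptor gene IL7R it was 85.5. IL2RA was at -0.14 (SE 0.05), IL2RG at -0.32 (SE 0.06) and IL9R at -0.48 (SE 0.07), all lower, in the authors' deposited table. IL4R, the interleukin-4 receptor alpha chain that recruits STAT6, was higher at 0.30 (standard error 0.07 and adjusted p 0.000324) in the authors' deposited table. Of the receptor genes in this paragraph and the one before, IL12RB1, IFNAR2, IL2RA, IL2RB, IL2RG, IL7R and IL9R were named after their values were seen.

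Most ligand genes were low. Of 21 in the table, 5 were listed at 0 and 3 reached a mean of at least 72.0. Among 12 tested, 1 was higher and 4 lower (41.7%, beside 29.5% of all tested genes), with a median log2 fold change of -0.82. LIF, which signals through STAT3, was higher at 0.74 (standard error 0.29 and adjusted p 0.0351) in the authors' deposited table, but not with all low genes kept (adjusted p 0.0530). IL13, a ligand of the STAT6 pathway, had a mean of 3670 and a log2 fold change of -1.01 (SE 0.26) in the authors' deposited table, and IL5, which acts through STAT5, had 85.7 and -2.09 (SE 0.30).

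Of 17 tested negative regulators, 2 were higher and 3 lower (29.4%, beside 29.5% of all tested genes), with a median log2 fold change of 0.09. SOCS3, a feedback inhibitor induced by STAT3, was higher at 0.67 (standard error 0.14 and adjusted p 9.00e-06) in the authors' deposited table. CISH, the feedback inhibitor induced by STAT5, had a mean of 4915 and a log2 fold change of 0.37 (standard error 0.15 and adjusted p 0.0391) in the authors' deposited table, and it missed the threshold with all low genes kept (adjusted p 0.0591). PTPRC, the CD45 phosphatase, was lower at -1.94 (SE 0.29), USP18, which restrains interferon receptors, at -1.38 (SE 0.21) and the phosphatase gene PTPN1 at -0.16 (SE 0.06) in the authors' deposited table. STAT3 was itself lower and STAT5A and STAT5B did not pass, while SOCS3 and CISH were higher.

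Partners of STAT proteins had 1 of 9 tested members higher and 4 lower (55.6%, beside 29.5% of all tested genes). Their median log2 fold change was -0.20. IRF9, the DNA-binding partner of STAT2, was lower, as STAT2 was. The authors' deposited table gave IRF9 a mean of 872 and a log2 fold change of -0.97 (standard error 0.11 and adjusted p 1.14e-17). PDLIM2, a ubiquitin ligase that acts on STAT proteins, was at -1.04 (SE 0.15) and the coactivator gene CREBBP at -0.65 (SE 0.07) in the authors' deposited table. MED14, a Mediator subunit, was higher at 0.63 (standard error 0.24 and adjusted p 0.0328) in the authors' deposited table.

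Targets of STAT2 and IRF9 were mostly lower, as were both factors. Of 27 tested targets, 15 were lower and 1 higher (59.3%, beside 29.5% of all tested genes). Lower genes made up 14.8% of all tested genes, and 42.6% of those with a mean of at least 72.0 passed in either direction. Log2 fold changes in this list had a median of -1.07. That minimum mean was reached by 16 of the 30 targets in the table. With genes below it left out, 13 targets were lower and 1 higher. With a mean of at least 72.0, the 3 largest falls were in MX1, CMPK2 and HERC6. Values in the authors' deposited table were -2.89 (SE 0.46, mean 79.4) for the antiviral GTPase gene MX1, -2.05 (SE 0.16) for CMPK2 and -2.05 (SE 0.18) for HERC6. TRIM22, an antiviral ubiquitin ligase, was the exception at 1.26 (standard error 0.14 and adjusted p 6.11e-18) in the authors' deposited table. MX2 and IFI44L were also lower, at means of 21.1 and 19.7, and IFIT1 and ISG15 were listed at 0 in the authors' deposited table.

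The promoters of these targets were compared with those of the STAT genes. RefSeq promoters (GRCh38.p14, 250 bases before to 50 after a gene start) were searched on both strands for the ISRE-type letters, GAAA then any 2 bases then GAAA, and the GAS-type letters TTCNNNGAA, which can overlap. An ISRE-type match was found in 18 of 25 targets with a promoter (72.0%) and in 4.38% of 27305 genes. The list holds known targets of a complex that binds such elements. The high share therefore follows from how the list was made and is not a result of these data. Of the 13 targets with a promoter that were lower, 7 held a match, and of the 8 tested ones that did not pass, 7 did, and this difference was not tested. The windows of 5 lower targets are shown to display the element, with every ISRE-type match in capitals. Of the 5, 3 carry it as its reverse complement. A GAS-type match that overlaps the one in EPSTI1 is not marked. In HERC5 and IFIH1 the capitals cover 2 overlapping matches.
EPSTI1, chr13:42992267-42992306, minus strand: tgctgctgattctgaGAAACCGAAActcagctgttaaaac
IFI6, chr1:27672324-27672363, minus strand: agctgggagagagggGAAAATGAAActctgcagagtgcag
HERC5, chr4:88456979-88457018, plus strand: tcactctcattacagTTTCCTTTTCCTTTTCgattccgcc
IFIH1, chr2:162318819-162318858, minus strand: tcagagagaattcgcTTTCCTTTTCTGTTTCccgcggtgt
PARP9, chr3:122564317-122564356, minus strand: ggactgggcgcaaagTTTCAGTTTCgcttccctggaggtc
In the authors' deposited table EPSTI1 had a log2 fold change of -1.86 (SE 0.14), IFI6 -1.59 (SE 0.26), HERC5 -0.87 (SE 0.34), IFIH1 -0.65 (SE 0.22) and PARP9 -1.33 (SE 0.07). PARP9 had a mean of 1113 and IFI6 one of 103.5 in the same deposited table. These 5 were chosen after their values were seen, as lower targets with a mean of at least 72.0 and a match before the gene start.

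None of the 9 promoters of the 6 STAT genes held either set of letters. Among all 35116 promoters, 7.66% held the GAS-type and 3.57% the ISRE-type letters, so an absence is the usual case. The 250 bases before the start of STAT2 (chr12:56360108-56360357, minus strand, GRCh38.p14) are shown because STAT2 changed most.
STAT2: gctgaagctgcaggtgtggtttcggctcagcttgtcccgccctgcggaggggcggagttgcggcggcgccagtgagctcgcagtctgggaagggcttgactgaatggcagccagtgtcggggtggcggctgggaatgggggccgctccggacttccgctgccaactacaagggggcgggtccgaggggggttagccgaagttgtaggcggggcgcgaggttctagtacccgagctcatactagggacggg
The whole STAT2 promoter has 66.3% G and C, above 70.5% of promoters. STAT5B, the member with the highest level, had the promoter richest in G and C of the 9, at 82.0%, above 98.7% of promoters. The poorest was a STAT4 promoter at 49.0%.

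GAS-type letters were held by 2 higher and 7 lower pathway genes whose mean reached 72.0. With genes below that mean left out before adjustment, 18 pathway genes were higher and 45 lower, with or without a promoter. The 2 and 7 are therefore not read as a difference between directions. GAS-type letters occur in 9.38% of all genes with a promoter. IRF9, CISH and BCL6 are shown with every match in capitals, of which CISH has 2, because they are the partner of STAT2, a feedback inhibitor of STAT5 and a target in the STAT3 list, and they were chosen after their values were seen.
IRF9, chr14:24161187-24161226, plus strand: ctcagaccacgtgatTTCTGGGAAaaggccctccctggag
CISH, chr3:50611985-50612024, minus strand: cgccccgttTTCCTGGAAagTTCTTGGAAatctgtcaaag
BCL6, chr3:187745472-187745511, minus strand: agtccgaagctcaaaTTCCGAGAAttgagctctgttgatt
CISH and BCL6 are the 2 higher genes, and IRF9 is 1 of the 7 lower ones.

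STAT3 targets split, since of 12 tested members 5 were higher and 4 lower, around a median log2 fold change of 0.67. The authors' deposited table gave 2.07 (SE 0.22) for PRDM1, which encodes the repressor BLIMP1, 1.75 (SE 0.20) for BCL6, its mutual antagonist in lymphocytes, and 1.44 (SE 0.12) for VEGFA. Lower were MAF, a transcription factor of helper T cells, at -2.32 (SE 0.08), the kinase gene PIM1 at -1.72 (SE 0.17) and the survival gene MCL1 at -0.98 (standard error 0.22) in the authors' deposited table. The direction of STAT3 itself was thus shared by 4 of its 9 targets past the threshold.

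STAT4 targets had 1 of 7 tested members higher and 4 lower (71.4%, beside 29.5% of all tested genes). Their median log2 fold change was -1.08, while STAT4 did not pass. IL12RB2 was the higher one. With genes below 72.0 left out, 1 was higher and 2 lower. PRF1, the pore-forming protein of cytotoxic cells, was lower at -1.08 (SE 0.07), as was the protease gene FURIN, at -0.66 (SE 0.03) in the authors' deposited table, with means of 3811 and 19493.

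STAT5A and STAT5B targets had 2 of 16 tested members higher and 7 lower (56.25%, beside 29.5% of all tested genes). Their median log2 fold change was -0.38. Neither STAT5 gene passed. The authors' deposited table gave -1.72 (SE 0.17) for PIM1, -1.33 (SE 0.09) for the related kinase gene PIM2 and -1.19 (SE 0.14) for BCL2, an inhibitor of apoptosis, the 3 largest falls at a mean of at least 72.0. CISH and IL4R were the 2 higher ones. STAT6 targets had 4 of 7 tested members higher and 2 lower (85.7%, beside the same 29.5%), with a median log2 fold change of 0.30. Among the 4 higher, FCER2 and PPARG had means of 3.53 and 34.7 in the authors' deposited table, and the list had 2 higher and 2 lower when genes below 72.0 were left out. With widened errors it had 1 higher and 1 lower. CCR4, a chemokine receptor of helper cells, was higher at 1.95 (SE 0.04), as was IL4R, while the monoamine oxidase gene MAOA was lower at -1.39 (SE 0.14), as was IL13, in the authors' deposited table.

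**Figure D4:**
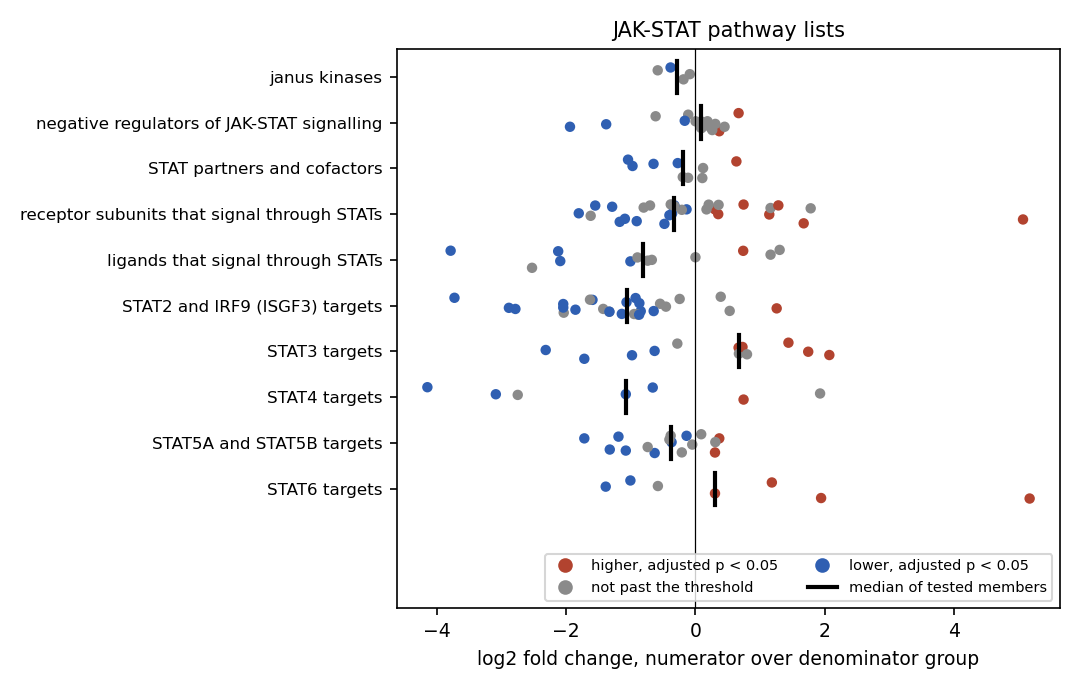
Log2 fold change, numerator over denominator group, of each tested member of 10 pathway lists, with the median of each list as a black bar and colours for the direction of genes past the threshold. The median lies at -1.07 for STAT2 and IRF9 targets, at 0.67 for STAT3 targets and at 0.30 for STAT6 targets.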

How the data were processed

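Libraries of 3 alt-LAMA3 KO and 3 WT samples came from total RNA and a SMARTER mRNA-Seq preparation kit, per the labels' protocols. The submitters' processing notes list STAR, Salmon and hg38, giving neither roles nor versions. For each gene the authors deposited a mean over libraries of its normalized count, read here as a signal. They also deposited a log2 fold change with its error in log2 units, and a Wald score, which is the log2 fold change over its error. The deposited p-values and adjusted p-values are the authors'. The column names are those of a DESeq2 results table, per the file headers. The test that made them is not given in the sources used here. Library depths are not known, so precision is given by the deposited standard errors (median 0.14 for tested genes with a mean of at least 72.0).

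Calls used an adjusted p of 0.05 over all 13957 genes with an adjusted p. Intervals are 95% normal intervals of the deposited values. Gene names matched 33483 identifiers and GENCODE 29 matched 33582. Coding sequences, transcript lengths and 31-base words came from GENCODE 29, and promoters from RefSeq (GRCh38.p14). Planned fits on values per sample could not be made. Planned protein comparisons were replaced by coding sequences. Members and lists were chosen with earlier results of these data known. Named genes were the 6 STAT genes, all members of lists with at most 4 tested, and the 2 highest and 2 lowest markers per list. From longer lists, up to 3 per direction were named, with the largest change past the threshold and a mean of at least 72.0. NAB2 and LRP1 were named as overlapping STAT6, and IFNAR1 as missing. MX2, IFI44L, IFIT1, ISG15, FCER2 and PPARG were named outside this rule for their low means, with their values seen. The others are said to be chosen after their values were seen. The alternatives tried were a 1.5-fold null, no filter, a minimum mean, coding genes only, widened errors, Bonferroni adjustment and median centring. Functions were tested on simulated data. Python 3.11.15, numpy 2.4.6, pandas 2.3.3, scipy 1.17.1, biopython 1.88 and matplotlib 3.10.9 were used.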

Additional observations from a re-analysis of the deposited data

How the results depend on the processing

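STAT2 and STAT3 kept direction and call under 6 of 7 alternatives and STAT6 under 4 of 7. Against a 1.5-fold change the log2 fold changes of -0.83 for STAT2, -0.37 for STAT3 and 0.52 for STAT6 no longer passed (adjusted p = 0.897, 1 and 1), leaving 0 STAT genes higher and 0 lower, with 0 at an unadjusted p under 0.05. With widened errors (adjusted p = 0.377) and with Bonferroni adjustment (adjusted p = 1), STAT6 at 0.52 did not pass, leaving 0 higher and 2 lower. STAT4, STAT5A and STAT5B passed under none of the 7. Pathway genes called numbered 19 higher and 51 lower, against 9 and 27 for a 1.5-fold change and 11 and 32 with widened errors. Targets of STAT2 and IRF9 kept 10 to 15 lower and 1 higher over all 7. Of 37 named pathway genes past the threshold, 25 passed against a 1.5-fold change, 28 with widened errors and 30 with Bonferroni adjustment. JAK3 and SOCS3 lost the call under the first pair of these, and CISH, PTPN1, MED14, LIF, IL13, MCL1 and IL4R under all 3. CREBBP, IL12RB2 and FURIN lost it only against a 1.5-fold change. With no filter on low means CISH (adjusted p = 0.0591) and LIF (0.0530) lost it, and with the minimum mean TYK2 gained it (0.0448). The pathway and cell marker lists together give 30 counts by direction. Of these, 17 moved by over 1.5 times against a 1.5-fold change and 13 with widened errors. With Bonferroni adjustment 9 moved, with the minimum mean 7 and with no filter 3. The median log2 fold change of genes with a mean of at least 72.0 was -0.01, so centring moved no call of a STAT gene. No paired analysis was possible because the table holds no value per sample, and for the same reason leaving out replicates and other normalizations were not run.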
